A study of Mus musculus with 4 samples.

Results

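*Tnfsf11*, *Tnfrsf11a*, *Wnt4*, *Wnt5a*, *Wnt7b*, *Calca* and *Rspo1* encode signals between cells, and 1 receptor of such a signal. They are grouped here as signals of hormone-sensing cells of the mammary gland after exposure to progesterone. This is a name for the set, and that each gene is such a signal is not assumed. The 7 genes were taken by symbol from the 52636 genes measured in single luminal cells of the mouse mammary gland, and each was found once. Thoracic and abdominal glands of 3 C57BL/6N mice per genotype, aged 6 weeks, were pooled and digested, and luminal cells were enriched and sorted by FACS. The genotypes were *Erbb3*+/+;MMTV-Cre (WT) and *Erbb3*V943R/V943R;MMTV-Cre (mutant), and each pool was run as 2 droplet libraries. The 2 libraries of a pool are named A and B, and those of the pools are not matched. Both genotypes carry the MMTV-Cre transgene, which drives recombination in mammary epithelium, so the WT mice are Cre controls and the stromal cells of either pool are not a model of the mutation. V943R is a substitution in the kinase domain of ERBB3. The labels name no hormone treatment and no stage of the estrous cycle, so no comparison here is one of progesterone with its absence.

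Progesterone acts on the luminal cells that carry its receptor, and many of the cells that divide in response lack the receptor. The hormone-sensing cells release RANKL (*Tnfsf11*) and Wnt4, which act on luminal progenitors and basal cells, and R-spondin 1 (*Rspo1*) is a partner that strengthens Wnt signals by protecting Wnt receptors from removal. Wnt5a acts largely through receptors other than the β-catenin route and restrains branching, Wnt7b is a further secreted Wnt, and *Calca* encodes calcitonin and its relative CGRP.

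The values were read as unique molecular identifiers (UMIs), so that 1 UMI counts 1 mRNA molecule caught in a droplet. The 4 libraries held 6849 to 9627 cells each, with a median of 3154 to 4027 UMIs per cell. Levels are a gene's UMIs per 1000000 UMIs of all genes in the same cells (CPM), and each has an exact Poisson 95% interval for counting error. The authors had labelled clusters 1 and 2 as luminal progenitor (LP), cluster 3 as luminal intermediate (LI) and clusters 4 to 11 as mature luminal (ML), and clusters 12 and 13 as rare. A list of 7 LP markers summed to 9195 CPM in WT LP cells and 115 in WT ML cells, while a list of 7 ML markers summed to 717 and 5026 CPM. The classes thus carried the markers of their names. The authors had named LP cells by *Kit* and ML cells by *Prlr* in these same data. Both genes are in the lists, so the sums are no separate check of the names. LI cells held both lists, at 3083 and 3646 CPM in WT, and had a median of 5620 UMIs against 2018 in LP cells and 3508 in ML cells of WT. Of the 31923 cell barcodes, 511 were found in more than 1 library. Each genotype was 1 pool of mice, so genotype and pool cannot be told apart, and no test with mice as replicates can be made.

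The 250 bases before the start of 4 of these genes are printed to set the ligands with no or few UMIs beside the LP genes. They come from RefSeq on GRCm38.p6, where 5 of the 7 members had an entry, and run 5′ to 3′ on the strand of the gene. The start is that of RefSeq, which for *Tnfrsf11a* and *Wnt4* lies inside the gene as GENCODE gives it, so their windows reach past the GENCODE start. The capitals mark matches, on either strand, to any of 6 motifs searched.

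Tnfsf11, chr14:78308044-78308293, minus strand: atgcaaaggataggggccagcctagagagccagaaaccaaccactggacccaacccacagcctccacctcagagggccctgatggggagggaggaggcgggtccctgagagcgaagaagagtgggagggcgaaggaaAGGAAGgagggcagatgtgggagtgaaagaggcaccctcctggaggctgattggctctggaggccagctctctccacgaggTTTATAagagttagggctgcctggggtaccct

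Calca, chr7:114636358-114636607, minus strand: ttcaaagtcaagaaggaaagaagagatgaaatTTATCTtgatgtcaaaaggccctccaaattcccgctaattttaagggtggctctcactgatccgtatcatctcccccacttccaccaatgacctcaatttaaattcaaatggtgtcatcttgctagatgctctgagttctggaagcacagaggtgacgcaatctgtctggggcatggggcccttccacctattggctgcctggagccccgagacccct

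Tnfrsf11a, chr1:105780473-105780722, plus strand: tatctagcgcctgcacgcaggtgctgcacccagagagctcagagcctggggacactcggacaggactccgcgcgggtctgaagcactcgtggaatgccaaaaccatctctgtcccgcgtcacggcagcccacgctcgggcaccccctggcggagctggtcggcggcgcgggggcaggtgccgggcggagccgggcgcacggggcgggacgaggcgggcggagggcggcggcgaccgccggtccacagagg

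Rspo1, chr4:124986180-124986429, plus strand: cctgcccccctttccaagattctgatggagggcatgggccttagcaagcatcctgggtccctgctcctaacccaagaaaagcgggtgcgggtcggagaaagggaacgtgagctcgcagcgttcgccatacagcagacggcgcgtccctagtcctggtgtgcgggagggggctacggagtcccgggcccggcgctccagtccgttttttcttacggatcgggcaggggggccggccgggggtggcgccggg

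The *Tnfsf11* window held a TATA box (TATAAA), here in its reverse complement and 32 bases before the start, and an ETS motif (AGGAAG) at 113 bases. The *Calca* window held 1 GATA motif (AGATAA), also in its reverse complement, at 218 bases. Of the 32851 windows of this length in the RefSeq table, 12.4% held TATAAA, 29.5% AGGAAG and 9.99% AGATAA. The windows of *Tnfrsf11a* and *Rspo1*, and that of *Wnt4*, held none of these and no half-site of the progesterone and glucocorticoid receptors (AGAACA, in 16.1% of windows), spaced pair of half-site cores (ACANNNTGT, 5.84%) or FOX motif (TGTTTAC, 3.17%). The *Tnfsf11* and *Calca* windows also held no half-site, spaced pair or FOX motif. AGAACA and ACANNNTGT share letters and can overlap, and a match is a description of the sequence alone. The windows of the 3 members with an entry and over 300 UMIs were rich in CpG, with 31 CpG and a GC content of 73.6% in *Tnfrsf11a*, 22 and 66.8% in *Rspo1* and 44 and 85.2% in *Wnt4*, where 99.9% of all windows had a lower GC content. The windows of *Tnfsf11* and *Calca* had 4 CpG each, with a GC content of 60.4% and 48.0%, against a median of 6 CpG and 52.4% over all windows.

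*Tnfsf11* (ENSMUSG00000022015, chromosome 14 from 78277445 to 78308043), the gene of RANKL, had no UMI in any of the 32439 cells. With 0 counts a level of up to 0.0221 CPM and a share of cells with a UMI of up to 0.00925% remain possible over the whole series, where the limit stands for 3 counts and covers counting error only. It limits the cells with a UMI, not the cells that express the gene, and whether *Tnfsf11* reads were lost in counting cannot be told from these values. Within the ML cells, which carry *Pgr*, 0 of 14188 WT cells and 0 of 9612 mutant cells had a UMI, which allows a level of up to 0.0528 and 0.0657 CPM by the same limit of 3 counts. The upper ends of the exact Poisson intervals were 0.0650 and 0.0808 CPM. *Calca* (ENSMUSG00000030669, chromosome 7 from 114631478 to 114636357) had 7 UMIs in 5 cells, with 4 in WT and 3 in the mutant, and of these 5 were in ML cells and 2 in 1 WT LI cell. Neither gene can be compared between the genotypes from these counts.

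The other 5 members were detected in every library. *Wnt5a* (ENSMUSG00000021994, chromosome 14 from 28504750 to 28527448) had 20802 UMIs and was found in 33.3% of all cells. *Wnt4* (ENSMUSG00000036856, chromosome 4 from 137277489 to 137299726) had 11483 UMIs in 24.4% of cells, and *Wnt7b* (ENSMUSG00000022382, chromosome 15 from 85535437 to 85582473) had 5716 UMIs in 15.2% of cells. *Rspo1* (ENSMUSG00000028871, chromosome 4 from 124986430 to 125009099) had 507 UMIs in 1.38% of cells, and *Tnfrsf11a* (ENSMUSG00000026321, chromosome 1 from 105780718 to 105847981), the gene of the RANKL receptor RANK, had 382 UMIs in 372 cells. Positions are those of GRCm38 in GENCODE. *Wnt5a* overlaps *Gm2670* on the opposite strand over 3319 bases and *Wnt7b* overlaps *AU022754* over 2222 bases. Those genes had 149 and 417 UMIs, and whether the counting used strand is not stated in the sources used here.

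The 5 detected members fell on different classes of cell. *Wnt4*, *Wnt5a* and *Wnt7b* were higher in ML and LI cells, where the hormone receptors are, while *Rspo1* and *Tnfrsf11a* were higher in LP cells. The clusters and classes were drawn from the same cells and genes, so these contrasts are descriptions and no test was made of them.

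*Wnt4* stood at 99.2 CPM in WT ML cells (96.6 to 102), 111 in WT LI cells (104 to 119) and 19.0 in WT LP cells (16.2 to 22.2). The mutant levels were 86.4, 93.3 and 17.6 CPM. A *Wnt4* UMI was found in 28.6% of WT ML cells and 4.21% of WT LP cells. When each cell was thinned to 1000 UMIs these shares were 9.49% and 1.17%, with 45 WT and 252 mutant cells of lower depth not used. In cluster 13, led by immune genes, 18.1% of the 83 WT cells had a *Wnt4* UMI, or 4.36% after thinning, with a median of 1899 UMIs. The *Wnt4* level there was 108 CPM (72.6 to 156) from 29 UMIs, against 99.2 CPM in WT ML cells. In mutant cells of cluster 13 it was 68.0 CPM from 16 UMIs. The ML markers *Prlr* and *Pgr* stood at 796 and 78.5 CPM in WT cluster 13, so it held RNA of other ML genes too. Cluster 13 is thus no measure of background for *Wnt4*, and whether its cells express the gene was not tested. The part of free RNA in the LP share was not tested.

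*Wnt5a* stood at 167 CPM in WT ML cells (164 to 170), 116 in LI cells (108 to 124), and in LP cells at 27.8 (24.4 to 31.6). In the mutant it was at 194, 143 and 24.5 CPM. Its share of WT cells was 36.8% in ML and 4.46% in LP, or 13.6% and 1.39% after thinning, against 13.3% and 2.55% in cluster 13. Cluster 13 stood at 56.0 CPM in WT (31.4 to 92.4) and at 123 in the mutant (82.5 to 177), and here too the part of free RNA in the LP share was not tested. Unlike *Wnt4*, *Wnt5a* was lower in LI than in ML cells in both genotypes, with a log2 ratio of −0.53 (WT, −0.63 to −0.43) and −0.44 (mutant, −0.53 to −0.35). For *Wnt4* the same ratio was 0.16 (0.06 to 0.27) and 0.11 (−0.01 to 0.23).

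*Wnt7b* stood at 46.7 CPM in WT ML cells (44.9 to 48.5), 42.9 in LI cells (38.3 to 47.8) and 21.9 in LP cells (18.9 to 25.3), and at 45.2, 39.8 and 20.6 CPM in the mutant. It was found in 16.5% of ML and 5.38% of LP cells of WT, or 4.71% and 2.04% after thinning, against 6.02% and 1.06% in cluster 13. The LP level of *Wnt7b* was 0.47 of its ML level in WT and 0.46 in the mutant. For *Wnt4* this was 0.19 and 0.20, for *Wnt5a* 0.17 and 0.13, and for *Pgr*, the gene of the progesterone receptor, 0.13 and 0.11.

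*Rspo1* stood at 21.9 CPM in WT LP cells (18.9 to 25.3) and 0.25 in WT ML cells (0.13 to 0.41), from 187 and 14 UMIs, and at 21.0 and 0.20 in the mutant. By library the LP level was 24.0 and 20.1 CPM in WT, against 24.3 and 18.2 in the mutant, so the genotypes overlapped. LP cells were 89.0-fold above ML cells in WT (51.7 to 166) and 106-fold in the mutant. They held 71.6% of all *Rspo1* UMIs of WT, LI cells held 22.6%, and 0 of 83 WT cells of cluster 13 had one, which allows a share of cells with a UMI of up to 3.61%. Within LP cells, *Rspo1* stood at 22.3 CPM in cluster 1 and 20.7 in cluster 2, and the intervals of these levels overlapped. In LI cells, which also held *Pgr* (105 CPM in WT), *Rspo1* stood at 7.98 CPM in WT (6.07 to 10.3). *Rspo1* was thus at the lowest of its 3 class levels in ML cells, where *Wnt4*, *Wnt5a* and *Wnt7b* were above their LP levels.

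*Tnfrsf11a* stood at 12.1 CPM in LP cells of WT (9.87 to 14.7), at 3.92 in LI and at 0.86 in ML (0.64 to 1.14), from 103, 29 and 49 UMIs. The mutant levels were 14.3, 4.38 and 0.57 CPM. LP cells were 14.01-fold above ML cells in WT (9.88 to 20.1) and 25.1-fold in the mutant. A *Tnfrsf11a* UMI was found in 3.11% of WT LP cells and 0.35% of WT ML cells, or in 1.22% of LP cells after thinning. The rare cells also held the receptor, with 7 UMIs in WT cells of cluster 13 (26.2 CPM, 10.5 to 53.9) and 2 in WT cells of cluster 12. Cells of the immune lineage are known to carry RANK, so cluster 13 is no measure of background for this gene.

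**Figure D1:**
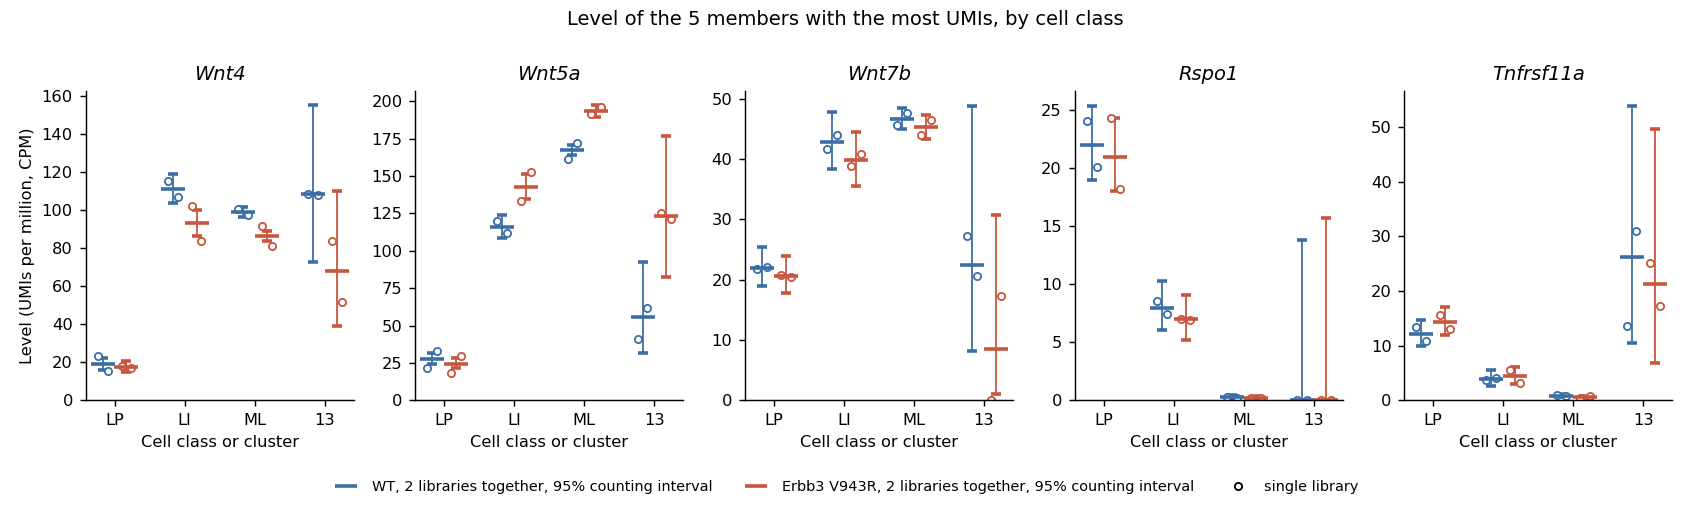
Level (CPM) of *Wnt4*, *Wnt5a*, *Wnt7b*, *Rspo1* and *Tnfrsf11a* in LP, LI and ML cells and in cluster 13 (immune genes), with WT in blue and the mutant in red. Horizontal bars are the level over both libraries of a genotype, vertical bars the exact 95% counting interval and circles the single libraries, and each panel has its own scale. The Wnt ligands are above their LP level in LI and ML cells, while *Rspo1* stands at 21.9 CPM in WT LP cells and 0.25 in WT ML cells.

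Part of the Wnt signal in LP cells sat in a small number of deep cells. Of the 3181 WT LP cells, 220 (6.92%) held 5 or more UMIs of ML markers, with a median of 7508.5 UMIs per cell against 1913 in the other LP cells. These cells held 73.4% of the *Wnt5a* UMIs of WT LP cells, 66.7% of the *Wnt4* UMIs and 36.9% of the *Wnt7b* UMIs. They held 11.2% of the *Rspo1* UMIs and 9.71% of the *Tnfrsf11a* UMIs. Being deep, these cells held a larger share of the UMIs of all genes than of the cells. The *Rspo1* and *Tnfrsf11a* shares were below that share of all UMIs, as both levels were higher without these cells. In the mutant, 173 of 3123 LP cells (5.54%) met the same rule and held 75.6% of the *Wnt5a*, 45.1% of the *Wnt4* and 25.7% of the *Wnt7b* UMIs. Without them the WT LP level was 9.17 CPM for *Wnt5a*, 7.86 for *Wnt4*, 17.2 for *Wnt7b*, 24.2 for *Rspo1* and 13.5 for *Tnfrsf11a*. *Pgr* is 1 of the ML markers and *Wnt4*, *Wnt5a* and *Wnt7b* are not. Whether these cells were doublets was not tested.

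**Figure D2:**
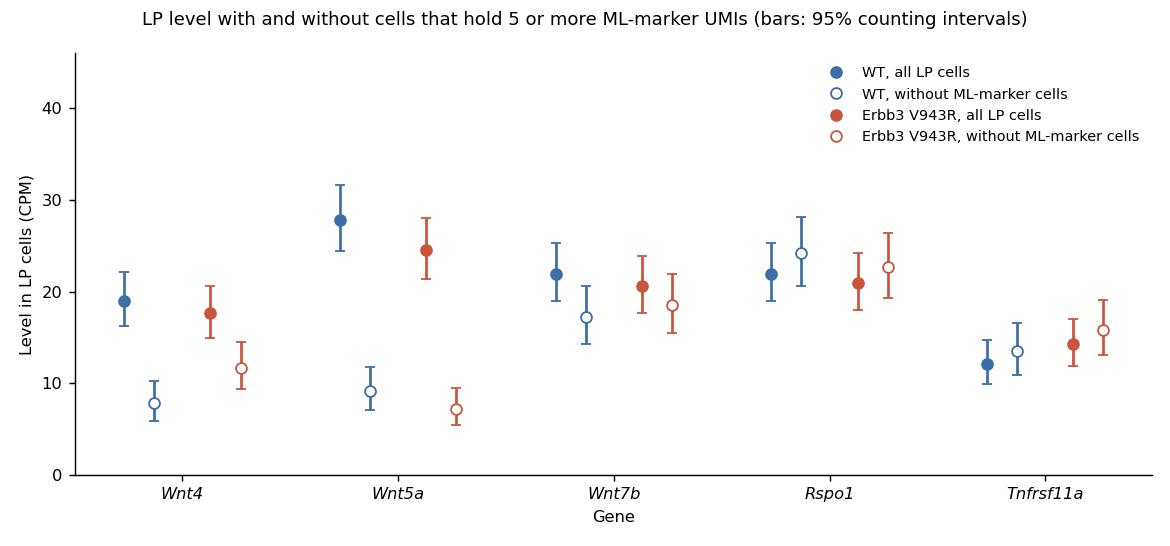
Level in LP cells (CPM) of the 5 detected members over all LP cells (filled) and without the LP cells that held 5 or more ML-marker UMIs (open), in WT (blue) and the mutant (red), with exact 95% counting intervals. *Wnt5a* goes from 27.8 to 9.17 CPM in WT and *Rspo1* from 21.9 to 24.2.

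Over the 8 ML clusters, *Wnt4* and *Wnt5a* had unlike orders. In WT, *Wnt4* was highest in cluster 11, at 139 CPM (131 to 146), then in cluster 9 (128), cluster 8 (112), cluster 4 (99.8), cluster 7 (94.8), cluster 6 (79.9), cluster 5 (77.4) and cluster 10 (76.9). Of the neighbors in this order, the log2 ratios of cluster 8 to cluster 4 and of cluster 7 to cluster 6 had intervals above 0, and the other neighbors did not differ beyond counting error. Cluster 11 held 2863 cells of the WT pool and 670 of the mutant pool. *Wnt4* there was 1.52-fold its level in the other ML cells of WT (1.43 to 1.62) and 1.38-fold in the mutant. By library the log2 ratio was 0.58 and 0.63 in WT and 0.27 (−0.01 to 0.54) and 0.64 in the mutant, so 1 mutant library had an interval that included 0.

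*Wnt5a* was highest in cluster 5, at 251 CPM in WT (236 to 266), followed by cluster 7 (236), cluster 6 (196), cluster 9 (156), cluster 8 (154), cluster 4 (152), cluster 10 (125) and cluster 11 (98.4, 92.2 to 105). Clusters 5 and 7 did not differ beyond counting error, nor did clusters 9, 8 and 4, and the other steps did. In cluster 11 *Wnt5a* was 0.54 of its level in the other ML cells of WT (0.51 to 0.58) and 0.69 in the mutant. In the mutant, clusters 5 (274 CPM), 7 (236) and 6 (191) again had the highest levels. *Wnt7b* ranged from 33.0 CPM in cluster 10 to 64.5 in cluster 9 of WT, and only the step from cluster 8 (41.2) to cluster 10 exceeded counting error. Cluster 9 had few UMIs of each ligand, with 91 of *Wnt4*, 111 of *Wnt5a* and 46 of *Wnt7b* in WT.

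**Figure D3:**
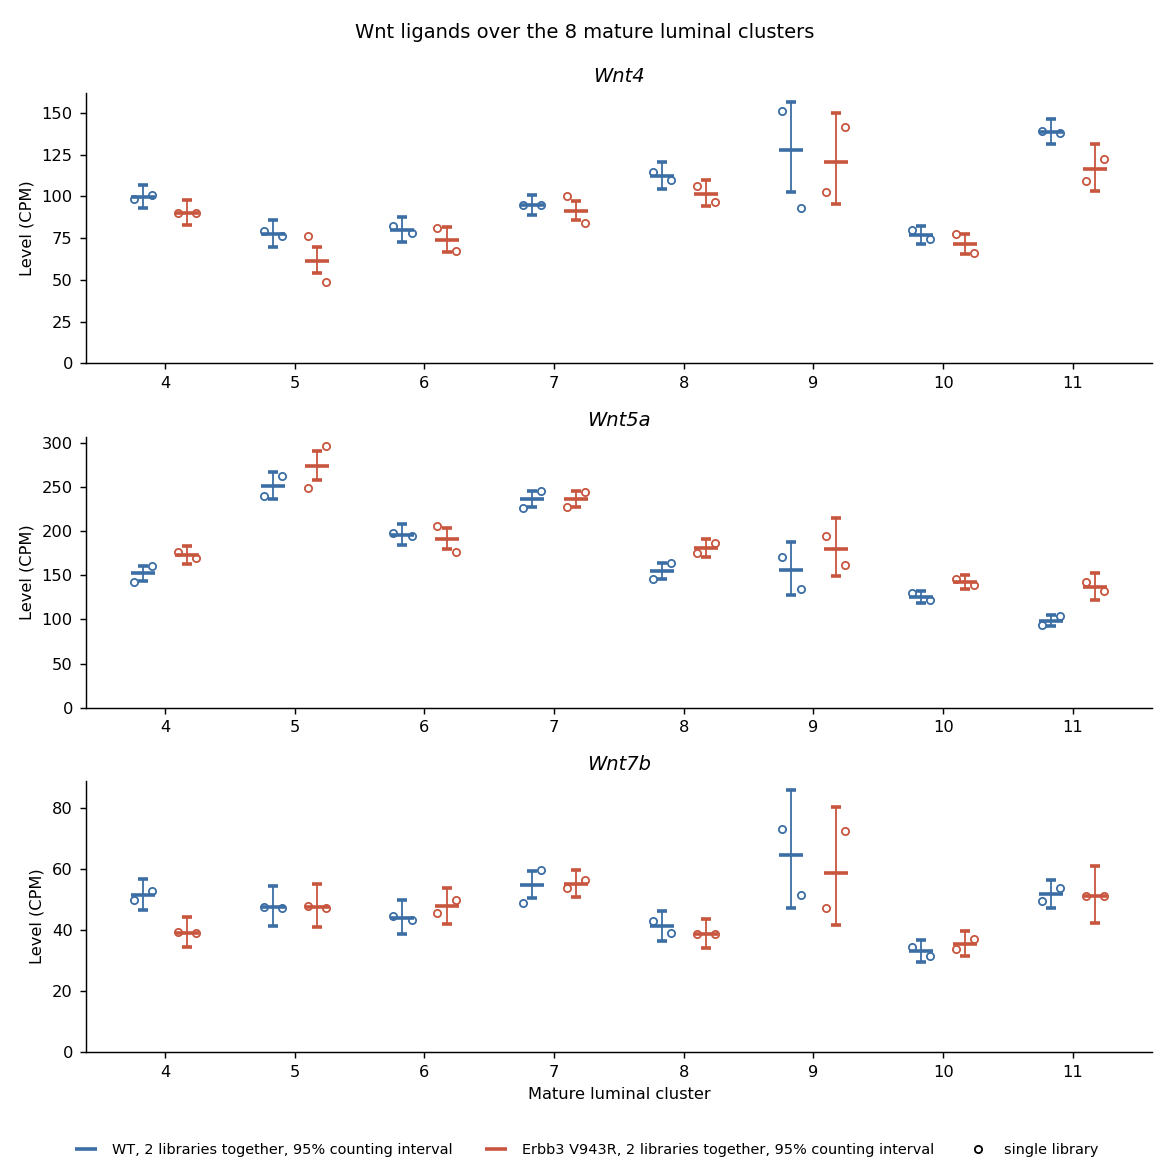
Level (CPM) of *Wnt4*, *Wnt5a* and *Wnt7b* in the 8 ML clusters, with WT in blue and the mutant in red. Horizontal bars are the level over both libraries of a genotype, vertical bars the exact 95% counting interval and circles the single libraries. In WT cluster 11 *Wnt4* is at 139 CPM, the top of its range, and *Wnt5a* at 98.4 CPM, the bottom of its range.

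The ligands were also set beside the hormone receptor genes *Esr1* and *Pgr*. Over the 8 ML clusters, Pearson's r of log2(CPM + 1) between *Wnt4* and *Esr1*, the gene of the estrogen receptor, was 0.87 in WT and 0.86 in the mutant. Between *Wnt4* and *Pgr* it was 0.33 and 0.44. For *Wnt5a* it was −0.50 and −0.44 with *Esr1* and −0.36 and −0.43 with *Pgr*. For *Wnt7b* it was 0.58 and 0.31 with *Esr1* and 0.01 and −0.30 with *Pgr*. *Wnt4* and *Wnt5a* had an r of −0.57 and −0.46 over the 8 ML clusters, and of 0.78 and 0.88 over the 11 luminal clusters. These are descriptions over 8 or 11 points that share libraries and differ in depth. Over the 11 luminal clusters of WT, the genes most like *Wnt4* among 7616 candidates were *Gcnt2*, *Fgfr2* and *Scnn1a*, with an r of 0.98 to 0.99. Those most like *Wnt5a* were *Marcks*, *Samd5* and *1810010D01Rik* (0.98 to 0.99), and those most like *Wnt7b* were *Pak6*, *H2-K1* and *Atp2c2* (0.96 to 0.97). In the mutant the same genes had an r of 0.98 to 0.99 with *Wnt4*, 0.95 to 1.00 with *Wnt5a* and 0.91 to 0.94 with *Wnt7b*. Of the 11 clusters, 2 are LP. Over the 8 ML clusters alone, the 3 genes most like each ligand in WT had an r of 0.93 to 0.97 there, and in the mutant of 0.68 to 0.93 with *Wnt4*, 0.39 to 0.93 with *Wnt5a* and 0.39 to 0.72 with *Wnt7b*.

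The shares of ML cells that held more than 1 ligand were also counted. A UMI of at least 1 of *Wnt4*, *Wnt5a* and *Wnt7b* was found in 60.0% of WT and 65.1% of mutant ML cells, or in 25.5% and 26.0% after thinning, and all 3 were found in 2.92% and 3.85%. With cells thinned to 1000 UMIs, the share of cells with *Wnt5a* among *Wnt4*-positive ML cells was 0.86 to 0.97 times that among the *Wnt4*-negative ones over the 4 libraries. This ratio was 1.05 to 1.22 for *Wnt4* and *Wnt7b* and 1.02 to 1.19 for *Wnt5a* and *Wnt7b*. With *Pgr* it was 0.91 to 1.04 for *Wnt4*, 0.99 to 1.07 for *Wnt5a* and 0.97 to 1.12 for *Wnt7b*, and with *Esr1* 0.88 to 1.17 over the 3 ligands. Without thinning, in 5 bins of ML cells by depth per genotype (10 in all), the ratio was 0.78 to 1.09 for *Wnt4* and *Wnt5a*, 0.84 to 1.44 for *Wnt4* and *Wnt7b*, with 8 bins above 1, and 0.79 to 1.51 for *Wnt5a* and *Wnt7b*, with 9 bins above 1. In sparse counts such weak ratios are read as no finding.

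Between genotypes the members were compared by their log2 ratio of CPM, mutant over WT, with an exact conditional binomial 95% interval. Genes with at least 50 UMIs in the genotype with more were compared. Such a gene was counted as higher or lower where both mutant libraries lay beyond both WT libraries, and as called where it also had a fold of 1.5 or more. Over all cells 5 members had enough UMIs, of which 2 were higher, 2 lower and 0 called. Of the 16403 genes with enough UMIs, 31.8% were higher, 22.5% lower and 4.42% called, so such non-overlap was common over the whole series. In ML cells, 3 members had enough UMIs, of which 1 was higher, 1 lower and 0 called, against 27.7% higher, 26.8% lower and 4.46% called of 15065 genes. In LP cells 0 of 5 members were higher, 1 lower and 0 called, against 23.1%, 18.1% and 2.83% of 11219 genes. The median log2 ratio over all genes was 0.02 in all cells, 0.00 in ML cells and 0.02 in LP cells.

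*Wnt4* was lower in the mutant over all cells and in ML and LI cells. Over all cells it stood at 93.4 and 88.7 CPM in the WT libraries, against 83.4 and 72.1 in the mutant libraries, a log2 ratio of −0.23 (−0.28 to −0.18). In ML cells it stood at 101 and 97.6 CPM in WT, against 91.9 and 81.3 in the mutant, a log2 ratio of −0.20 (−0.26 to −0.14), and in LI cells the ratio was −0.25 (−0.40 to −0.11). Mutant library B was the lowest in each case. Without it the ratio was −0.12 over all cells and −0.11 in ML cells, and without mutant library A −0.34 and −0.29. The ratio was below 0 in 8 of 8 ML clusters, from −0.33 to −0.05, with an interval below 0 in 2 of them and without overlap of the libraries in 3. In LP cells the ratio was −0.11 (−0.44 to 0.22), and its sign turned in 3 of 11 alternatives. Without the LP cells that held markers of both classes *Wnt4* was higher in the mutant, at 7.86 CPM in WT against 11.7.

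*Wnt5a* was higher in the mutant over all cells and in ML cells. It stood at 140 and 149 CPM in the WT libraries, against 160 and 166 in the mutant libraries over all cells, a log2 ratio of 0.17 (0.13 to 0.21). In ML cells it stood at 161 and 172 CPM in WT, against 191 and 196 in the mutant, a log2 ratio of 0.21 (0.17 to 0.26), and in LI cells the ratio was 0.30 (0.17 to 0.43). It was above 0 in 7 of 8 ML clusters, from −0.03 to 0.47, with an interval above 0 in 5 and without overlap of the libraries in 4. These clusters too come from the same libraries and are not separate results. Of all genes, 27.7% were higher without overlap in ML cells and 21.0% in cluster 11, and the share in the other ML clusters was not counted. In LP cells the ratio was −0.18 (−0.45 to 0.09), with 21.8 and 33.2 CPM in WT, against 18.5 and 29.6 in the mutant, and its sign turned in 4 of 11 alternatives. With both libraries of each pool the fold was under 1.5 in all, ML and LP cells, and in LP cells without mutant library B the log2 ratio was −0.59, past that fold.

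**Figure D4:**
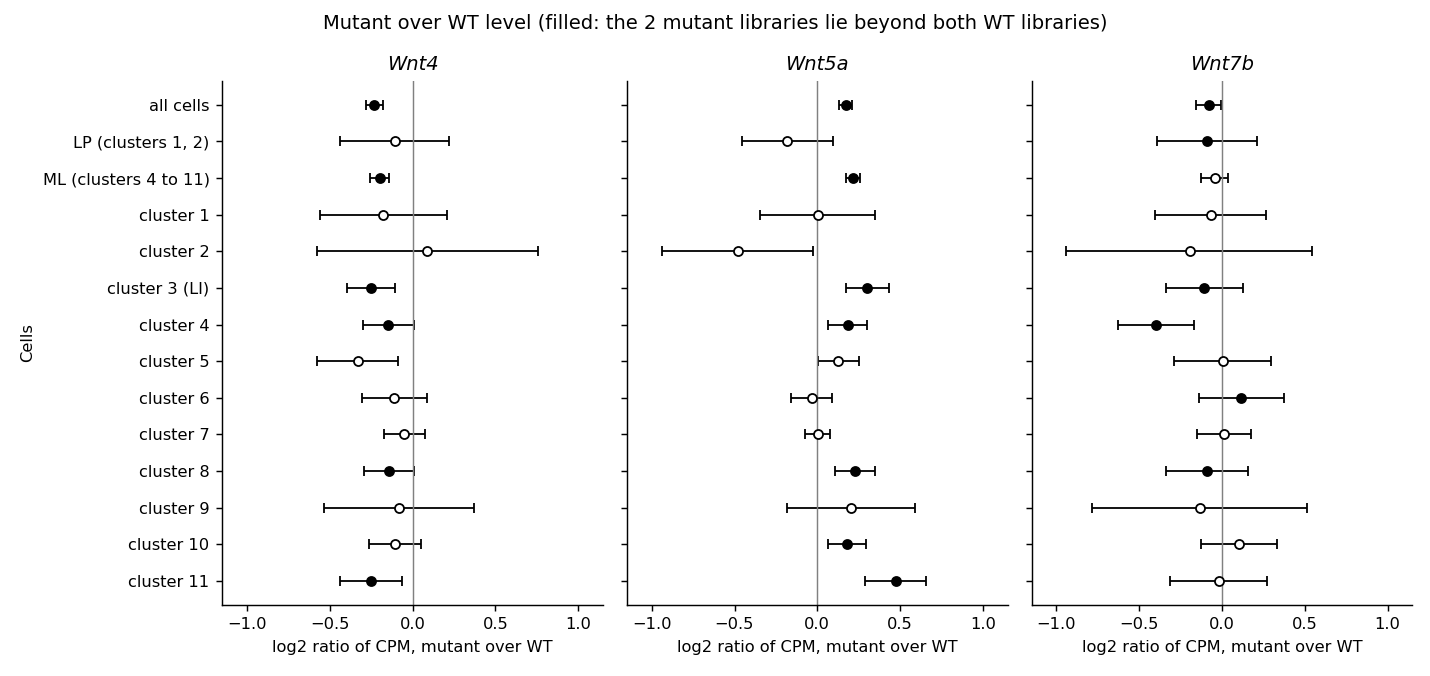
Log2 ratio of CPM, mutant over WT, of *Wnt4*, *Wnt5a* and *Wnt7b* over all cells, LP, ML and each luminal cluster, with exact conditional 95% counting intervals; filled circles mark groups in which both mutant libraries lay beyond both WT libraries. *Wnt4* lies below 0 and *Wnt5a* above 0 over all cells (−0.23 and 0.17) and in cluster 11 (−0.25 and 0.47).

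Among the ML clusters the ratio of *Wnt5a* was farthest from 0 in cluster 11. There *Wnt5a* stood at 93.0 and 103 CPM in the WT libraries, against 142 and 132 in the mutant libraries, a log2 ratio of 0.47 (0.29 to 0.66). *Wnt4* stood at 139 and 138 CPM in WT, against 110 and 123 in the mutant, a ratio of −0.25 (−0.44 to −0.06). *Wnt7b* stood at 51.8 and 51.1 CPM, a ratio of −0.02 (−0.32 to 0.27). Of the 3 members with enough UMIs in cluster 11, 1 was higher, 1 lower and 0 called, against 21.0%, 23.6% and 4.93% of 8112 genes, and the median ratio there was −0.03.

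The share of clusters differed between the pools. The ratio of *Wnt4* moved with it, and so did that of *Wnt5a* in ML cells. With mutant cells weighted to the cluster shares of WT, the log2 ratio over all cells was −0.15 for *Wnt4*, 0.17 for *Wnt5a* and −0.05 for *Wnt7b*. In ML cells it was −0.15 for *Wnt4* and 0.15 for *Wnt5a*, against −0.20 and 0.21 without the weights. Without the cells of cluster 11 it was −0.14 and 0.11 over all cells, and −0.11 and 0.12 in ML cells. Sums over gene lists also differed between the genotypes. For 7 ML markers the sum was 4370 CPM in WT against 3784 in the mutant over all cells. Of these markers 4 were lower and 0 higher, beside 22.5% and 31.8% of all genes. The sum is led by abundant genes such as *Prlr* (1853 and 1664 CPM), while *Pgr* stood at 127 and 133 CPM. For 7 genes of the stress of tissue dissociation the sums were 18469 and 15140 CPM. The part of either list in the Wnt results was not tested.

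*Wnt7b* stood at 42.3 and 44.1 CPM in the WT libraries, against 40.0 and 41.8 in the mutant libraries over all cells, a log2 ratio of −0.08 (−0.16 to −0.0038). In ML cells the libraries overlapped, with 45.6 and 47.7 CPM in WT, against 44.0 and 46.4 in the mutant. In LP cells it was the 1 member counted as lower, at 21.8 and 22.1 CPM in WT, against 20.8 and 20.5 in the mutant, with an interval that included 0 (−0.39 to 0.21). The sign of this ratio turned in 3 of 11 alternatives, and without the LP cells that held markers of both classes *Wnt7b* was at 17.2 CPM in WT, against 18.5 in the mutant. Of the 8 ML clusters, 4 had a ratio above 0 and 4 below. The lowest of these 8 ratios was that of cluster 4, at −0.40 (−0.63 to −0.17), the 1 cluster with an interval below 0. *Wnt7b* stood there at 49.98 and 53.0 CPM in WT, against 39.3 and 39.0 in the mutant. Both mutant libraries lay below both WT libraries in 2 of the 8 clusters and above them in 1. The share of all genes without such overlap was not counted in cluster 4.

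The receptor and *Rspo1* differed less clearly. *Tnfrsf11a* stood at 2.77 and 2.45 CPM in the WT libraries, against 3.23 and 2.93 in the mutant libraries over all cells, a log2 ratio of 0.24 with an interval from −0.05 to 0.54. At the WT cluster shares the ratio was 0.01. In LP cells it stood at 13.4 and 10.9 CPM in WT, against 15.7 and 13.1 in the mutant, so the libraries overlapped. In ML cells it had 49 UMIs in WT, just under the minimum of 50, and 26 in the mutant, at 0.86 and 0.57 CPM, a ratio of −0.60 (−1.35 to 0.11). *Rspo1* stood at 3.94 and 3.24 CPM in WT, against 4.33 and 3.58 in the mutant over all cells, with overlap and a ratio of 0.14 (−0.11 to 0.40). With the WT cluster shares its ratio was −0.18. In LP cells it was −0.07 (−0.37 to 0.24).

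The genes around the RANK receptor were detected although its ligand was not. Of 15 genes of the RANK pathway, 3 were higher and 7 lower over all cells and 0 were called, against 31.8%, 22.5% and 4.42% of all genes tested. Their median log2 ratio was −0.02, and 10 had their highest WT level in LP cells. The share of all genes highest in LP cells is not given here, so this count is no result about the pathway. *Nfkbia*, an inhibitor of NF-κB that NF-κB itself induces, stood at 711 CPM in WT against 650 in the mutant. *Ccnd1*, the gene of cyclin D1, stood at 489.5 and 527 CPM. *Id2*, a target of RANK in the mammary gland, stood at 241 CPM in WT LP cells and 25.6 in WT ML cells, and at 281 and 23.4 in the mutant.

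Of the 16 other Wnt ligands, 3 had no UMI and 2 had enough UMIs for the comparison. Of these 1 was higher and 1 called lower over all cells, beside 31.8% and 4.42% of all genes, and 1 was called in ML cells, beside 4.46%. *Wnt5b* had 7671 UMIs and stood at 326 CPM in LP cells of WT, 130 in LI and 2.48 in ML. Its class of highest level was thus the reverse of that of *Wnt5a*. Over all cells it stood at 53.2 CPM in WT against 60.7 in the mutant, and in LP cells at 326 and 321. *Wnt11* had 93 UMIs and was called lower in the mutant, at 0.85 and 0.50 CPM over all cells, a log2 ratio of −0.77 (−1.44 to −0.13), and at 0.95 and 0.48 CPM in ML cells, a ratio of −0.98 (−1.77 to −0.24). *Wnt9a*, next by UMIs, had 62 over all libraries.

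Of the 8 other R-spondins and receptors of R-spondins, *Rspo2* and *Rspo4* had no UMI and *Rspo3* had 3. The 4 genes with enough UMIs were higher over all cells and 0 were called, where 31.8% of all genes tested were higher and 4.42% called. Their median log2 ratio was 0.24. All 4 had their highest WT level in LP cells, which held 11.7% of the UMIs of WT and 13.9% of those of the mutant. Here too the share of all genes highest in LP cells is not given. Within LP cells 2 of the 4 were higher, beside 23.1% of all genes, with a median log2 ratio of 0.11, and within ML cells 2 of 3, beside 27.7%. *Lgr6*, a receptor of R-spondins, stood at 42.4 CPM in WT LP cells and 0.51 in WT ML cells, so like *Rspo1* it was higher in LP cells. *Rnf43* and *Znrf3*, which remove Wnt receptors from the membrane and are held back by R-spondins, stood at 20.1 and 10.6 CPM in WT LP cells. *Znrf3* stood at 15.7 CPM in mutant LP cells, a log2 ratio of 0.57 (0.17 to 0.97). The 4th gene was *Lgr4*, named here after its values were seen, at 16.2 CPM in WT LP cells and 3.52 in ML cells.

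Of 17 genes of Wnt secretion and Wnt receptors, 15 had enough UMIs, 3 were higher, 5 lower and 0 called, beside 31.8%, 22.5% and 4.42% of all genes. The median log2 ratio of the list was −0.01. *Wls*, which carries Wnts to the cell surface, stood at 54.3 CPM in WT against 50.05 in the mutant, *Ryk* at 48.6 and 46.7 and *Lrp5* at 40.7 and 43.4. The 3 stood at 40.6, 49.3 and 33.5 CPM in WT LP cells and at 57.1, 47.8 and 41.1 CPM in WT ML cells, so none was confined to the cells that held the ligands. Of 14 Wnt inhibitors and response genes, 4 had enough UMIs, 2 were higher and 1 was called, beside the same 31.8% and 4.42%. This was *Axin2*, a target of β-catenin, at 0.78 CPM in WT against 1.19 in the mutant over all cells, a log2 ratio of 0.60 (0.09 to 1.13). Its UMIs in WT and mutant cells were 33 and 36 in LP and 15 and 18 in ML, too few for the comparison within either class. The rest of its UMIs lay in LI and rare cells. LP cells held 11.7% of the UMIs of WT and 13.9% of those of the mutant. The part of the mix of classes in the *Axin2* call was not tested. *Sfrp2* stood at 2.76 and 2.71 CPM and *Tcf7* at 3.11 and 3.20.

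Of the 10 other genes of the calcitonin family and its receptors, 5 had enough UMIs, 3 were higher and 0 called over all cells. Of all genes, 31.8% were higher and 4.42% called. The median log2 ratio of the list was 0.05. *Ramp1*, the subunit that makes the calcitonin receptor-like receptor a receptor of CGRP, had 16766 UMIs and stood at 161 CPM in LP cells and 113 in ML cells of WT. *Crcp* stood at 31.8 CPM in WT against 30.6 in the mutant, and *Adm*, the gene of adrenomedullin, at 10.3 and 12.8 CPM.

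The list of hormone sensing and other progesterone targets held 17 genes, of which 14 had enough UMIs, 8 were higher, 3 lower and 4 called higher over all cells. Of all genes tested, 31.8% were higher, 22.5% lower and 4.42% called. The median log2 ratio of the list was 0.16, against 0.02 for all genes. The list was chosen with earlier results of these data known, so these counts are no test of progesterone targets as a set. The called genes were *Cxcl12*, a chemokine, at 30.2 and 47.8 CPM, *Sgk1*, a kinase induced by steroid hormones, at 134 and 210 CPM, *Greb1*, at 3.23 and 5.43 CPM, and *Edn1*, the gene of endothelin 1, at 13.5 and 21.4 CPM. In ML cells *Cxcl12*, *Sgk1* and *Greb1* were called, with log2 ratios of 0.71, 0.71 and 0.69, and in LP cells *Cxcl12* and *Edn1*, with 0.97 and 0.72. Of all genes, 4.46% were called in ML and 2.83% in LP cells. *Areg*, the amphiregulin gene, stood at 3173 and 3738 CPM. *Cited1* and *Prlr* were lower, at 1279 and 903 CPM and at 1853 and 1664 CPM.

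**Figure D5:**
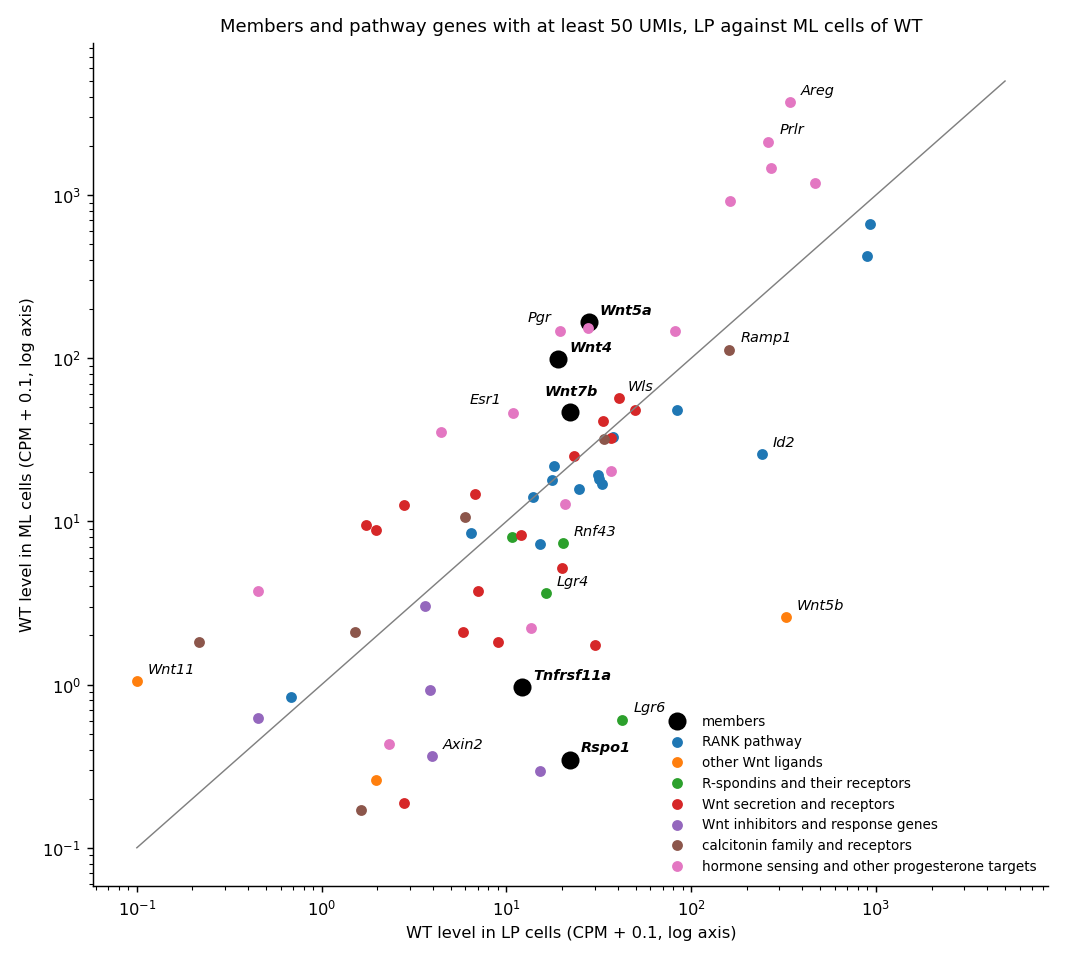
WT level in ML cells against WT level in LP cells (CPM + 0.1, both axes log) for the 5 detected members (black) and the genes of the 7 pathway lists with at least 50 UMIs (colors); the line marks equal levels. *Wnt4* and *Wnt5a* lie above the line beside *Pgr*, and *Rspo1* and *Tnfrsf11a* below it with *Wnt5b* and *Lgr6*.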

How the data were processed

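Luminal cells of 2 WT and 2 mutant droplet libraries (10x 3′) were measured. The deposited table gives a signal for 52636 genes in 32439 cells, which is UMIs scaled by the authors with 1 factor per cell, and names the genotype, library, cluster and class, which come from Partek Flow and Seurat. Their processing notes name CASAVA 1.8, bcl2fastq 2.20, GSNAP and GRCm38. Division by the smallest nonzero value of a cell gave whole numbers within 0.02 for 100% of 60853305 nonzero values, and these were used as UMIs. The libraries held 30019745 to 38009351 UMIs each. No cell was left out and no doublet caller was run. Intervals are exact Poisson (CPM), exact conditional binomial (log2 ratios) and Clopper-Pearson (shares), and they cover counting error only. Genotypes have no main test between them, as each was a single pool. An alternative with limma on log2 CPM with 0.5 UMIs added compares libraries, not mice. Shares after thinning are those expected in each cell at 1000 UMIs. Intervals and the rule for calls were run on simulated data with known changes. The intervals were run on Poisson counts, and the rule with the same library noise in both genotypes. The simulation had no differences between pools, so it does not show how either behaves with them.

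The members, gene lists and alternatives were chosen with earlier results of these data known. Of the pathway lists, the text names every gene called in all, ML or LP cells and the 3 genes with the most UMIs, and for each member with at least 300 WT UMIs the 3 genes of highest r over clusters among genes with at least 1000 WT UMIs. Promoter sequences are from RefSeq. The software was Python 3.11.15 (numpy 2.4.6, pandas 2.3.3, scipy 1.17.1, matplotlib 3.10.9) and R 4.3.3 (limma 3.58.1).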

Additional observations from a re-analysis of the deposited data

How the results depend on the processing

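Of 239 values of 21 results under the alternatives, 202 stayed within their main counting interval or count and 37 moved. The signs of *Wnt4*, *Wnt5a* and *Wnt7b* over all cells and of *Wnt4* and *Wnt5a* in ML cells were the same under every alternative run. In LP cells the sign turned in 3 of 11 alternatives for *Wnt4* and *Wnt7b*, 4 for *Wnt5a* and 2 for *Rspo1*, and that of *Rspo1* over all cells in 1 of 14. The cause of the moves below was not tested. Log2 ratios, mutant over WT, of *Wnt4* over all cells were −0.33 as the mean over cells of the deposited value, −0.32 without the 6% of cells with the most UMIs, −0.15 at the WT cluster shares and −0.14 without cluster 11. In ML cells *Wnt4* was −0.26 without the 6% and −0.11 without cluster 11. *Wnt5a* was 0.11 over all cells and 0.12 in ML cells without cluster 11, and 0.15 in ML cells at the WT cluster shares. *Rspo1* over all cells was −0.18 at the WT cluster shares. In LP cells without those holding markers of both classes *Wnt4* was 0.57, from 7.86 CPM in WT and 11.7 in the mutant. The number of members called in ML cells was 1 in place of 0 with a minimum of 20 UMIs or none (*Tnfrsf11a*, lower in the mutant), and 1 with limma at 0.5 or 2 UMIs added (*Wnt5a*, limma adjusted p = 0.0322 at 0.5). The limma fit compares libraries of 1 pool each, not mice. In it 907 of 15065 genes passed in ML cells and 858 of 16403 over all cells, where *Wnt5a* had an adjusted p of 0.0716 and *Wnt4* of 0.106 in limma. There 0 members passed, with 2 at an unadjusted limma p under 0.05, and in LP cells 0 members and 226 of 11219 genes passed, with 0 members at that unadjusted level.

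The log2 ratio of ML over LP cells in WT was 2.38 for *Wnt4*, 2.59 for *Wnt5a*, 1.09 for *Wnt7b*, −3.81 for *Tnfrsf11a* and −6.48 for *Rspo1*. As means of the deposited value it was 3.10 for *Wnt4* and 3.47 for *Wnt5a*. Without cells holding markers of both classes it was 3.66, 4.16 and 1.46 for *Wnt4*, *Wnt5a* and *Wnt7b*. In the mutant it was 2.98 for *Wnt5a* and −4.65 for *Tnfrsf11a*.

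With each library left out in turn, the ratios over all cells ranged from −0.34 to −0.12 for *Wnt4*, 0.13 to 0.22 for *Wnt5a*, −0.11 to −0.05 for *Wnt7b*, 0.15 to 0.33 for *Tnfrsf11a* and 0.00 to 0.28 for *Rspo1*. In ML cells they ranged from −0.29 to −0.11 for *Wnt4*, 0.17 to 0.26 for *Wnt5a* and −0.09 to −0.01 for *Wnt7b*. In LP cells they ranged from −0.40 to 0.22 for *Wnt4*, −0.59 to 0.17 for *Wnt5a*, −0.10 to −0.08 for *Wnt7b*, 0.09 to 0.39 for *Tnfrsf11a* and −0.27 to 0.15 for *Rspo1*, and the number called from 0 to 1, which was *Wnt5a* without mutant library B. ML over LP in WT ranged from 2.11 to 2.69 for *Wnt4* and 2.38 to 2.89 for *Wnt5a*. No paired analysis was possible because the table names no replicate number of a library. Few UMIs limited *Calca* in every class and *Rspo1* and *Tnfrsf11a* within single ML clusters, and *Tnfsf11* had none.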
